A study of Mus musculus with 11 samples.

Results

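The 10 genes described here mark eosinophils or attract them, and were examined in skin and small intestine of mice with psoriasis-like dermatitis. They were chosen by their gene symbol, as 10 of the 45777 genes in the expression table. They comprise the granule proteins *Epx* and *Prg2*, the granule ribonucleases *Ear1*, *Ear2* and *Ear6*, the surface receptors *Ccr3*, *Il5ra* and *Siglecf*, and the eotaxins *Ccl11* and *Ccl24*. The TLR7 ligand imiquimod (IMQ) was given as a cream to shaved skin, and RNA of whole tissue was sequenced. All mice were BALB/c, aged 8 to 10 weeks, and received 62.5 mg of cream a day over a stated range of 5 to 8 days. The IMQ cream (Aldara) contained 5% IMQ, and the control mice received Vaseline, so that IMQ and the base of the cream cannot be told apart. Skin was represented by 3 control and 3 IMQ libraries. For the small intestine there were 3 control libraries but 2 with IMQ. The sources used here do not say which skin and intestine libraries came from the same mouse, nor the sex or the days of treatment of each mouse. P-values therefore measure the spread between these libraries.

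Eosinophils are granulocytes that develop in the bone marrow under the transcription factor GATA1 and the cytokine IL-5, and they reside in the small intestine in health. The eotaxins CCL11 and CCL24, made largely by stromal cells and macrophages, draw them into tissue through the chemokine receptor CCR3. Their granules hold major basic protein (*Prg2*), eosinophil peroxidase (*Epx*) and ribonucleases of the Ear family, the mouse relatives of the human eosinophil cationic protein and eosinophil-derived neurotoxin. Several of these genes do not belong to eosinophils alone. *Ear2* is also known from monocytes and macrophages, *Siglecf* from macrophages and intestinal tuft cells, *Ccr3* and *Prg2* from mast cells and basophils, and *Il5ra* from B-1 cells.

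The libraries held 44995414 to 58526384 counts. A count of 0 allows a level of up to 0.0513 to 0.0667 CPM (counts scaled to the total of the library), a limit that covers counting error only. Markers of the labelled tissue were present in every library. Intestinal transcripts were also found in control skin replicate 2, in which the median of 12 intestinal epithelium genes was 1.25% of that found in control small intestine (at most 0.042% in the other skin libraries). This share corresponds to 2.43 of the 86 *Ccr3* counts and 0.392 of the 1179 *Ear2* counts of that library. The summed level of 11 hair follicle and pigment genes was 1818, 88.1 and 3035 CPM in control skin and 43.8 to 85.8 in IMQ skin.

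The Ear genes are similar copies that lie on chromosome 14, so their sequences are shown before their counts. The GENCODE transcripts (GRCm38) of *Ear1* and *Ear2* were identical in 96.8% of the aligned bases. Those of *Ear2* and *Ear10* were identical in 94.7%, and those of *Ear2* and *Ear6* in 89.4%. *Ear2* and *Ear10* shared 86 windows of 100 bases, the read length, without a mismatch, which is 13.9% of the 620 windows of *Ear2*. *Ear1* and *Ear2* shared no identical window, although 283 of them differed by at most 2 bases. *Ear1* shared 132 of its 614 windows with the pseudogene *Ear-ps9*. *Ear6*, *Rnase2a*, *Rnase2b* and the 7 members outside the family shared no window with any other gene.

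**Figure D1:**
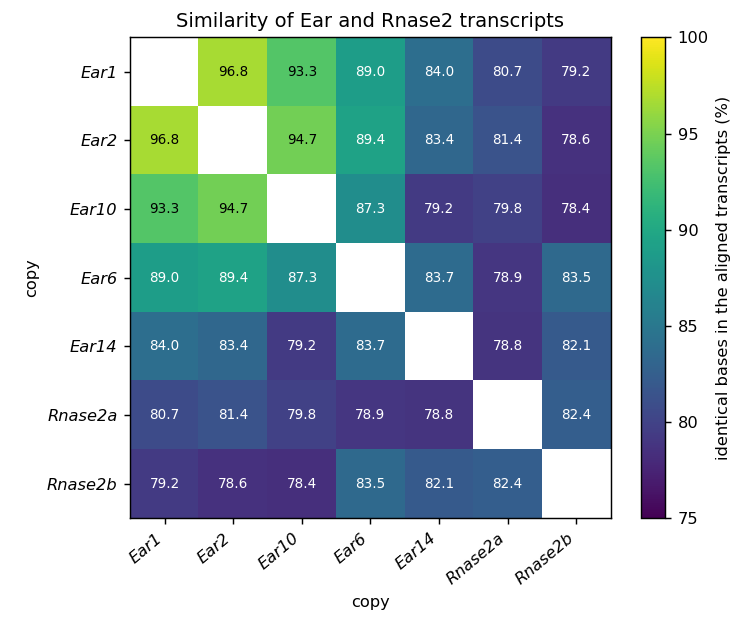
Percentage of identical bases in pairwise alignments of GENCODE transcripts of 7 Ear and Rnase2 copies. Both axes name the copies, and the colour gives the percentage from 75 to 100. The pair of *Ear1* and *Ear2* was the closest at 96.8%, and *Rnase2b* was the farthest from *Ear2* at 78.6%.

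The longest stretch common to *Ear2* and *Ear10* is shown because a read pair within it fits both genes. It has 185 bases, all of them coding and within a single exon, at chr14:44102975-44103159 on the plus strand of GRCm38 in *Ear2*.
Ear2 and Ear10 shared stretch: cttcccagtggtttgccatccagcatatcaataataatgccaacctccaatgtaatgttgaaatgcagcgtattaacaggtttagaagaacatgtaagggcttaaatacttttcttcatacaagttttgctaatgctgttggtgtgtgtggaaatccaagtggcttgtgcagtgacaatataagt
The 250 bases before the start of the gene are shown for *Ear2*, *Ear1*, *Ear10*, *Ear6* and *Rnase2b*, to show how alike the copies are there (RefSeq, GRCm38.p6, each on the strand of its gene). Capitals mark bases that differ from *Ear2* or are absent from it, between the first and the last aligned base of each pairwise alignment. Bases at the ends outside that stretch have no aligned base in *Ear2*. They are also in lower case, which there does not mean identity.
Ear2 (chr14:44102404-44102653, plus strand): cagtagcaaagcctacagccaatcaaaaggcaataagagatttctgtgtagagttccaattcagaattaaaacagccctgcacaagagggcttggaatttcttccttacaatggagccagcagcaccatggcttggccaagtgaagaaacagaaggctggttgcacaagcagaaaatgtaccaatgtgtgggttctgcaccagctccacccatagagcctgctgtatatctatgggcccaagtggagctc
Ear1 (chr14:43819640-43819889, minus strand): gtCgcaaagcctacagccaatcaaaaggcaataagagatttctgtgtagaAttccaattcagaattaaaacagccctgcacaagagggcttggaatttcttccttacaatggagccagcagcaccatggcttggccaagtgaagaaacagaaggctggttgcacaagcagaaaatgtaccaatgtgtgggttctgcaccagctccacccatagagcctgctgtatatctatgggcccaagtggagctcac
Ear10 (chr14:43923597-43923846, minus strand): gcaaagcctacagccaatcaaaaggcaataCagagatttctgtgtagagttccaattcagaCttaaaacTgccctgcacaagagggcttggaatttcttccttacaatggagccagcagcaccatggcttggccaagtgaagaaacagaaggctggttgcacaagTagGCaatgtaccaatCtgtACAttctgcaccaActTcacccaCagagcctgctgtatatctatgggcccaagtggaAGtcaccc
Ear6 (chr14:51853518-51853767, plus strand): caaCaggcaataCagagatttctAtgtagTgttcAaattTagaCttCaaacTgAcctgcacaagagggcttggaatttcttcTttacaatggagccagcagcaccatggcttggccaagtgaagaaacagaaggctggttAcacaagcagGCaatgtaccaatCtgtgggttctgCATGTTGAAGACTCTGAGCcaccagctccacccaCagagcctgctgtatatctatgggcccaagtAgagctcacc
Rnase2b (chr14:51162010-51162259, plus strand): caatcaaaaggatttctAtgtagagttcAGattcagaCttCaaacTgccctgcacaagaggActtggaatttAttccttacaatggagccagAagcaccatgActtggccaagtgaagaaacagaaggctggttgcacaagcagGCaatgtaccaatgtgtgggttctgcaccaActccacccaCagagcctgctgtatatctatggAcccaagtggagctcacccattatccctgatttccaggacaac
The upstream sequences of *Ear1* and *Ear2* differed at 2 of 248 aligned bases. *Ear10* differed from *Ear2* at 14 of 245, *Ear6* at 16 of 227 and *Rnase2b* at 15 of 222. The reference is the C57BL/6J genome, and how reads that match several genes were assigned is not given in the sources used here. The divisions of counts among *Ear1*, *Ear2* and *Ear10* are therefore uncertain.

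**Figure D2:**
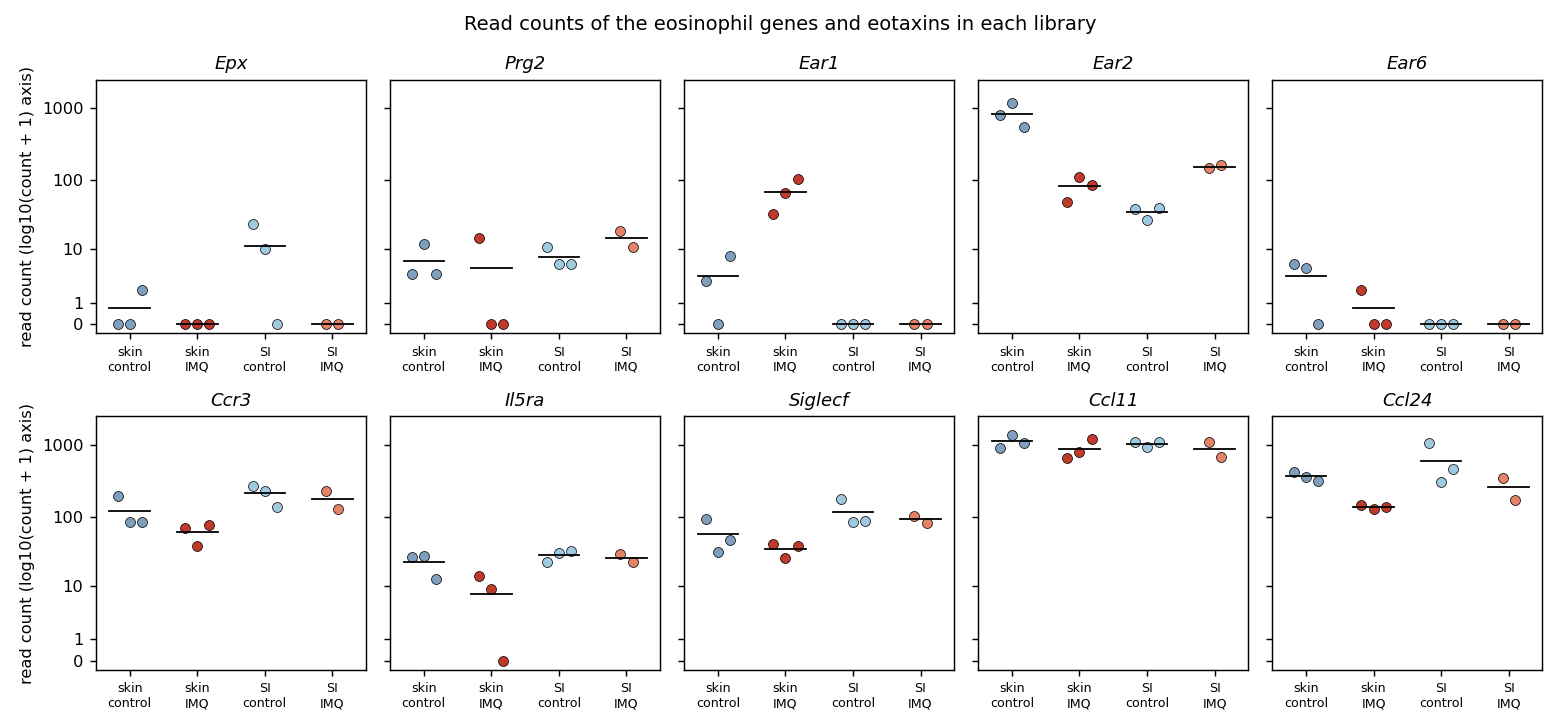
Read counts (log10(count + 1) axis) of the 10 genes in each of the 11 libraries, grouped as control and IMQ libraries of skin and of small intestine (SI), with a line at the mean of each group. *Ear2* was lower with IMQ in skin and higher with IMQ in small intestine, *Ear1* had counts in skin libraries alone, and *Epx* had at most 24 counts.

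Of the granule ribonucleases, *Ear2* (chr14:44102654-44103531) changed in opposite directions in the tissues. In control skin it had 814, 1179 and 546 counts, and in IMQ skin it had 50, 112 and 86. Every IMQ library was below every control library, as was true of 13.3% of all genes tested in skin. The mean fell from 833 ± 413 to 87.0 ± 30.5 normalized counts (SD, n = 3 each), a 9.54-fold lower level, with a log2 fold change of -3.25 (SE 0.45, edgeR quasi-likelihood test, adjusted p = 0.0116). The small intestine showed the opposite. *Ear2* had 39, 27 and 40 counts in control libraries there, and 146 and 161 in IMQ libraries. Both IMQ libraries were above all controls, as was true of 15.1% of all genes tested there. The mean rose from 35.5 ± 7.65 (n = 3) to 156 ± 32.5 normalized counts (n = 2), 4.37-fold, with a log2 fold change of 2.13 (SE 0.32, edgeR, adjusted p = 0.0136). The difference between the responses, small intestine minus skin, was 5.40 on the log2 scale (SE 0.60, edgeR interaction, adjusted p = 0.00178). Of all 18108 genes tested for this difference, 2.55% were called.

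The skin call for *Ear2* was lost without IMQ replicate 5 (edgeR, adjusted p = 0.0511, log2 fold change -3.51). The call in small intestine was lost without control replicate 9 (edgeR, adjusted p = 0.0685) and without IMQ replicate 11 (edgeR, adjusted p = 0.104), with log2 fold changes of 2.16 and 1.90. The difference between tissues was called in all 11 fits with a library left out, at 4.91 to 5.70. Control skin replicate 2, which had the most *Ear2* counts, had the least hair follicle transcript of the control libraries, and without it the log2 fold change of *Ear2* in skin was -2.80 (edgeR, adjusted p = 0.00978).

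*Ear1* (chr14:43818765-43819639), the copy closest to *Ear2*, was higher with IMQ in skin. It had 3, 0 and 8 counts in control skin and 33, 66 and 105 in IMQ skin, without overlap between the groups, which in this direction held for 15.1% of the genes tested. A control library at 0 kept *Ear1* from the filter of at least 1 count in every library. In the fit without that filter, it rose by a log2 fold change of 4.36 (SE 0.84, edgeR, adjusted p = 0.0402), where 3.74% of 29186 genes were called. *Ear1* had 0 counts in all 5 libraries of the small intestine. *Ear1* counts came to 0 to 1.47% of *Ear2* counts in control skin, and to 66%, 58.9% and 122% in IMQ skin.

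*Ear10*, which is not among the 10 genes, moved in the direction of *Ear2*. It had 12, 14 and 11 counts in control skin and 2, 3 and 3 in IMQ skin, a log2 fold change of -2.02 (SE 0.33, edgeR, adjusted p = 0.0205). Without the filter the call was lost (SE 0.54, edgeR, adjusted p = 0.0986). It had 0 counts in the 3 control libraries of small intestine, and 5 and 3 with IMQ. Its counts were 1.19% to 4% of those of *Ear2* in the libraries in which it was found, and what part of them came from *Ear2* reads was not tested. With *Ear1*, *Ear2* and *Ear10* summed into 1 row, the log2 fold change was -2.39 in skin (edgeR, adjusted p = 0.0280) and 2.16 in small intestine (edgeR, adjusted p = 0.0122).

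*Ear6* (chr14:51853768-51854643) had 6, 5 and 0 counts in control skin, 2, 0 and 0 in IMQ skin, and 0 in all small intestine libraries. At these counts no difference was detectable. *Ear14* had 0 counts in all 11 libraries, and the pseudogenes *Ear-ps2* and *Ear-ps9* had at most 4 and 5.

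*Rnase2b*, a ribonuclease copy farther from *Ear2*, had most of the family's counts in IMQ skin. It had 3211, 1866 and 510 counts in control skin and 10622, 8603 and 4778 in IMQ skin. The groups did not overlap, as was true in this direction of 15.1% of all genes tested in skin. The log2 fold change of 2.24 missed the threshold (SE 0.65, edgeR, adjusted p = 0.0936). *Rnase2a* had 171, 64 and 21 counts in control skin and 0, 9 and 4 in IMQ skin. Of the counts of the 7 copies, *Rnase2b* held 46.5% to 76.1% in control skin and 96.0% to 99.2% in IMQ skin. *Ear2* held 19.3% to 49.8% and 0.467% to 1.73%, respectively. No library of small intestine had more than 2 counts of *Rnase2b* or 4 of *Rnase2a*. Summing all 7 copies gave a log2 fold change of 1.67 in skin (edgeR, adjusted p = 0.117), so that the sign for the family in skin depended on whether *Rnase2b* was included.

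**Figure D3:**
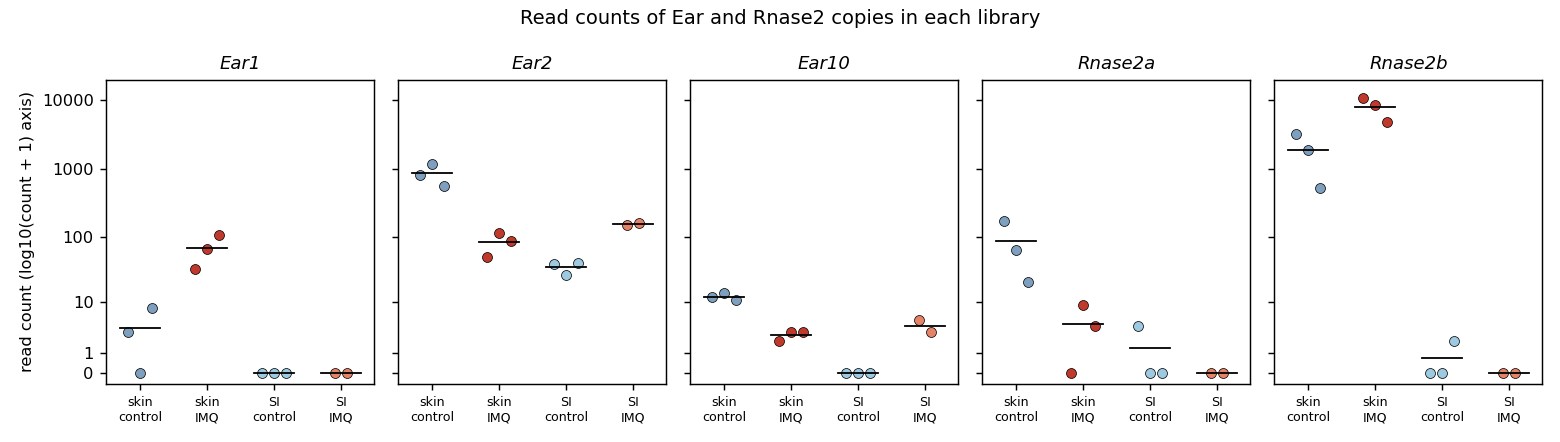
Read counts (log10(count + 1) axis) of 5 Ear and Rnase2 copies in each library, grouped by tissue and treatment (SI, small intestine), with a line at the group mean. In skin, *Ear1* and *Rnase2b* were higher with IMQ while *Ear2*, *Ear10* and *Rnase2a* were lower, and in small intestine *Ear2* and *Ear10* were higher with IMQ.

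The granule protein genes had few counts. *Epx* (chr11:87863997-87875536) encodes eosinophil peroxidase. It had 0, 0 and 2 counts in control skin and 0 in the 3 IMQ libraries. Small intestine had 24, 10 and 0 counts in control libraries and 0 in both IMQ libraries. The groups overlapped because control replicate 9 was also at 0, and the fit without the filter gave an adjusted p of 0.414 (edgeR, unadjusted p = 0.0343).

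*Prg2* (chr2:84980461-84983632) encodes major basic protein. It had 4, 12 and 4 counts in control skin, and 15, 0 and 0 in IMQ skin, so that both the highest and the lowest values were in treated mice. Small intestine had 11, 6 and 6 counts in control libraries and 19 and 11 with IMQ. After normalization these were 7.84 ± 3.55 (SD, n = 3) and 14.7 ± 3.57 (n = 2). The log2 fold change was 0.92 (SE 0.43, 95% interval -0.10 to 1.95) and did not pass the test (edgeR, adjusted p = 0.468). The normalized values of the groups did not overlap, though the lowest treated value was 12.2 and the highest control value 11.9. Groups without overlap occurred in this direction for 15.1% of all genes tested in small intestine. *Prg3*, a further granule protein gene, had 5 counts in IMQ skin replicate 5 and 0 in every other library.

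The receptors were lower on average with IMQ in both tissues, but no receptor passed the test. *Ccr3* (chr9:124017825-124031692) encodes the receptor of both eotaxins. It had 196, 86 and 86 counts in control skin and 70, 39 and 76 in IMQ skin. The first control library was the highest, and the normalized values of the others overlapped with those of IMQ skin. It had a log2 fold change of -0.81 (SE 0.42, 95% interval -1.82 to 0.19, edgeR, adjusted p = 0.310). Control libraries of small intestine had 268, 232 and 138 *Ccr3* counts, against 228 and 131 with IMQ. After normalization they were 207 and 145 with IMQ, within the control range of 127 to 291. The fold change there was -0.30 on the log2 scale (SE 0.38, 95% interval -1.19 to 0.59, edgeR, adjusted p = 0.849).

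*Siglecf* (chr7:43351341-43359475) encodes an inhibitory receptor for sialic acid. It had 92, 32 and 47 counts in control skin and 42, 26 and 39 in IMQ skin. Its log2 fold change was -0.49 (SE 0.41, 95% interval -1.45 to 0.48, edgeR, adjusted p = 0.530). Counts in small intestine were 180, 86 and 88 in control libraries and 103 and 82 with IMQ. There it was -0.39 (SE 0.43, 95% interval -1.41 to 0.63, edgeR, adjusted p = 0.818). Control replicate 7 was the highest for *Siglecf* as it was for *Ccr3* and *Epx*, and without it the log2 fold change of *Siglecf* was 0.14. The normalized counts of the treated libraries, 93.5 and 90.9, lay between that control (195) and the other controls (86.7 and 81.3).

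*Il5ra* (chr6:106710375-106749037) encodes the receptor chain that binds IL-5. It had 27, 28 and 13 counts in control skin and 14, 9 and 0 in IMQ skin, and the 0 kept it from the filter. The fit without the filter gave -1.42 (SE 0.95, edgeR, adjusted p = 0.489). Its counts in small intestine were 23, 31 and 33 in control libraries and 30 and 23 with IMQ, a log2 fold change of -0.13 (SE 0.31, 95% interval -0.86 to 0.60, edgeR, adjusted p = 0.929). In bulk tissue, fewer eosinophils and less RNA per eosinophil cannot be told apart. The intervals include a fall of more than 1 log2 unit in *Ccr3* and *Siglecf* in either tissue, so these libraries do not show whether a fall of that size occurred.

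*Ccr3* and *Siglecf* followed each other closely. Over all 11 libraries, the gene whose centred log2 normalized counts were closest to *Ccr3* among 16341 genes was *Siglecf*, and the closest to *Siglecf* was *Ccr3*, at a root mean square difference of 0.30. The median difference of *Ccr3* from all those genes was 1.04. The next closest to *Ccr3* were *Prrt1* at 0.39 and *A130051J06Rik* at 0.42. *Ear2* had no gene as near, its closest genes being *Camkk1* at 0.86, *Pdzrn4* at 0.87 and *Npr3* at 0.90. Its median difference from all those genes was also larger, at 1.71. The 11 libraries include 2 tissues, and a like difference between tissues enters each of these values.

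The letters GATAA, which GATA factors recognise, were searched on both strands in the 300 bases from 250 before to 50 after the transcript start that the RefSeq promoter table gives. For *Ccr3* that start lies inside the gene, 4146 bases downstream of its first base, so its window does not cover the first base of the gene. They occurred in 6 of the 7 members with a promoter entry (*Ear1*, *Ear2*, *Ear6*, *Ccr3*, *Il5ra* and *Siglecf*, not *Epx*) and in 25.4% of all 32851 entries. The Ear copies are alike in this region and are not independent. *Prg2*, *Ccl11* and *Ccl24* had no entry. A form of the palindromic STAT motif, TTC and GAA with any 4 bases between, occurred in *Epx* and *Il5ra*, and in 6.95% of all entries. Other spacings of this motif were not searched. The surroundings of GATAA in the receptor genes, the receptors being the eosinophil genes with the most counts outside the Ear family, are printed with the match in capitals (RefSeq, GRCm38.p6).
Ccr3 (chr9:124021917-124021971, plus strand): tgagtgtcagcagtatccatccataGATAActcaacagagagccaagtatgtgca
Il5ra (chr6:106749081-106749135, minus strand): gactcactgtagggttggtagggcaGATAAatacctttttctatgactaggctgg
Siglecf (chr7:43351341-43351370, plus strand): cttgatagtgctGATAAcctgtgggtggaa
The match began 29 bases before the start given in that table in *Ccr3* and 73 before it in *Il5ra*, and 12 bases after it in *Siglecf*. These matches describe the letters and are not evidence of binding.

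Of the eotaxins, *Ccl24* fell in IMQ skin. *Ccl24* (chr5:135569935-135573123), the eotaxin-2 gene, had 421, 360 and 319 counts in control skin and 149, 127 and 139 in IMQ skin. The groups did not overlap, as was true in this direction of 13.3% of all genes tested in skin. The mean fell from 351 ± 63.0 to 147 ± 16.1 normalized counts (SD, n = 3 each), 2.38-fold, with a log2 fold change of -1.25 (SE 0.22, edgeR, adjusted p = 0.0233). The call was lost without control replicate 1 (edgeR, adjusted p = 0.100) or without IMQ replicate 4 (0.0701), 5 (0.115) or 6 (0.0702), while the log2 fold change stayed between -1.40 and -1.16. Small intestine had 1056, 305 and 462 counts of *Ccl24* in control libraries and 351 and 171 with IMQ. The first control library was more than 2 times the next, and the groups overlapped. Its log2 fold change there was -1.30 (SE 0.57, 95% interval -2.64 to 0.043) and did not pass the test (edgeR, adjusted p = 0.428). Without control replicate 7 it was -0.52. The responses of *Ccl24* in the tissues differed by -0.043 on the log2 scale (SE 0.65, 95% interval -1.47 to 1.39).

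*Ccl11* (chr11:82057832-82062955), the eotaxin-1 gene, had the highest mean FPKM of the 10 genes in every group but control skin. It had 919, 1387 and 1074 counts in control skin and 671, 808 and 1208 in IMQ skin, which overlapped. The log2 fold change was -0.20 (SE 0.30, 95% interval -0.91 to 0.50, edgeR, adjusted p = 0.734). Its counts in small intestine were 1098, 934 and 1121 in control libraries and 1113 and 684 with IMQ, with a log2 fold change of -0.26 (SE 0.18, 95% interval -0.69 to 0.18, edgeR, adjusted p = 0.683).

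**Figure D4:**
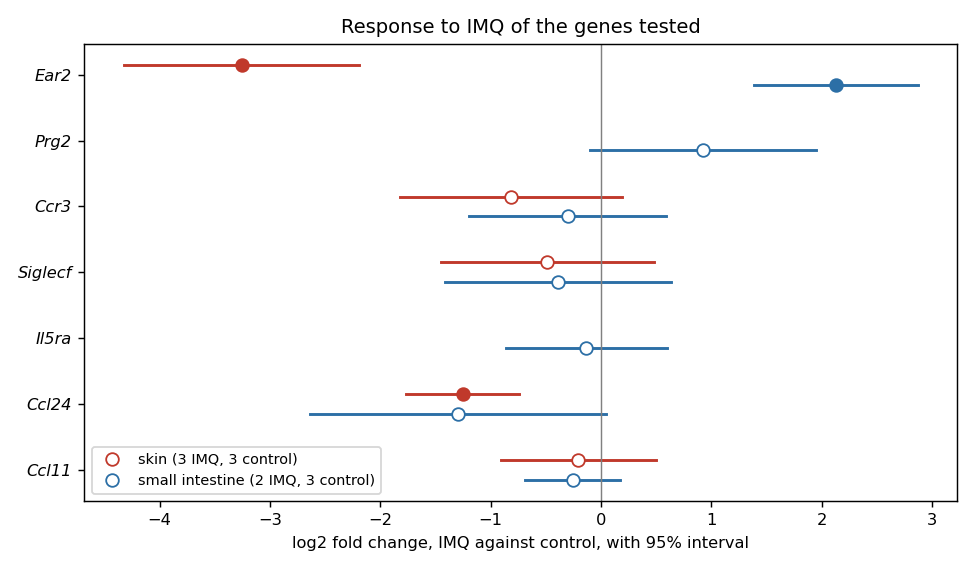
Log2 fold change of IMQ against control (horizontal axis) with its 95% interval for the genes that passed the filter in skin (5 genes) and in small intestine (7 genes). Filled points passed an adjusted p of 0.05, which were *Ear2* at -3.25 and *Ccl24* at -1.25 in skin, and *Ear2* at 2.13 in small intestine.

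Of the 10 genes, 5 passed the filter in skin and 2 of them were called, both lower. In the skin fit without the filter 3 were called, where 3.74% of 29186 genes were called. The added gene was *Ear1*, which was higher (edgeR, adjusted p = 0.0402). Of all 20512 genes tested in skin, 6.74% were called and 2.69% were called lower. Small intestine had 7 that passed the filter and 1 that was called, in the higher direction, where 2.95% of all 19965 genes were called and 2.77% were called higher. The median log2 fold change of the genes that passed was -0.81 in skin and -0.26 in small intestine, beside -0.014 and -0.022 over all genes.

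In control mice, the members also differed between tissues. On the scale of FPKM, which takes account of transcript length, control skin had the highest levels for *Ear2* (21.5 ± 9.68, SD, n = 3) and *Ccl11* (18.9 ± 5.44), whose values overlapped. *Ccl24* followed at 5.51 ± 0.902 FPKM, *Ccr3* at 0.660 ± 0.321 and *Siglecf* at 0.393 ± 0.210, and the values of both receptors overlapped. The other members were at 0.134 FPKM on average or less. In control small intestine, *Ccl11* led at 17.0 ± 1.65 FPKM, and *Ccl24* followed at 9.03 ± 6.55, with 1 library at 16.6 overlapping with *Ccl11*. *Ccr3* (1.15 ± 0.456 FPKM), *Ear2* (0.836 ± 0.152) and *Siglecf* (0.815 ± 0.429) were not separated beyond their spread. *Prg2* and *Il5ra* lay at 0.147 ± 0.0661 and 0.136 ± 0.0180 FPKM, and *Epx* at 0.0753 ± 0.0827. *Ear1* and *Ear6* were at 0.

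**Figure D5:**
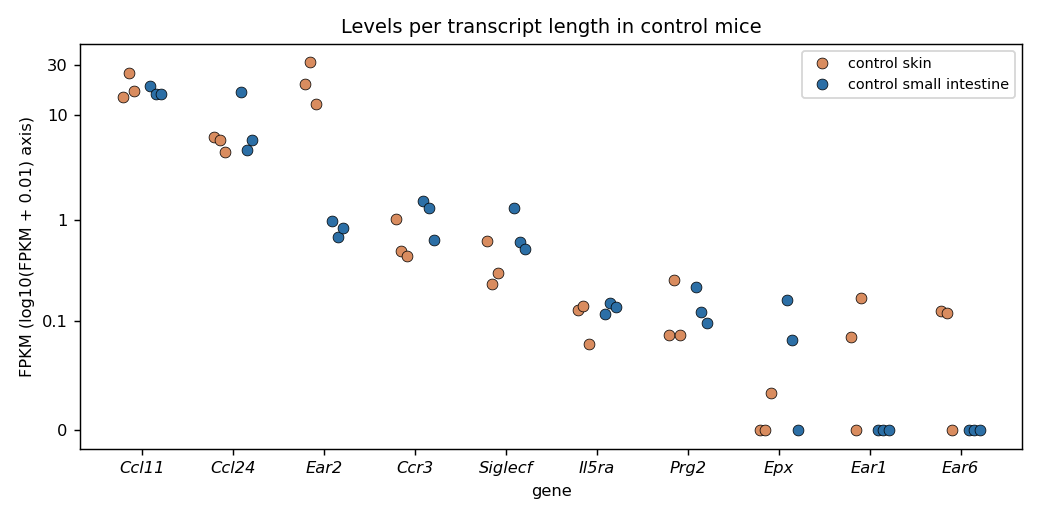
FPKM (log10(FPKM + 0.01) axis) of the 10 genes in the 3 control libraries of skin and the 3 of small intestine, with a point for each library. *Ear2* was between 12.9 and 32.0 in skin and between 0.681 and 0.984 in small intestine, whereas the values of *Ccl11* overlapped.

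With a single fit of all 11 libraries, in which 57% of 18108 genes were called between the control tissues, 5 members passed the filter. *Ear2* was 18.7-fold lower in control small intestine than in control skin (log2 difference -4.22, SE 0.44, edgeR, adjusted p = 1.02e-05). *Siglecf* was higher by 1.52 (SE 0.42, edgeR, adjusted p = 0.00906), *Ccr3* by 1.25 (SE 0.40, edgeR, adjusted p = 0.0213) and *Ccl24* by 1.17 (SE 0.43, edgeR, adjusted p = 0.0350) on the log2 scale. The calls other than that of *Ear2* depended on the scale, and those of *Ccr3* and *Ccl24* on single libraries. Without control small intestine replicate 7, the difference of *Ccl24* was 0.40 (edgeR, adjusted p = 0.249), and its call was also lost without control skin replicate 1 (0.0724) or 3 (0.108). The call of *Ccr3* was lost without control skin replicate 2 (0.0573) or 3 (0.0746) and without control small intestine replicate 7 (0.0836) or 8 (0.0521), with log2 differences of 0.98 to 1.20. On the scale of FPKM the median gene was -0.45 lower in small intestine, against -0.012 for normalized counts. There, the differences were 1.04 for *Siglecf* (limma, adjusted p = 0.0543), 0.81 for *Ccr3* (limma, adjusted p = 0.130) and 0.49 for *Ccl24* (limma, adjusted p = 0.302), with 0.01 added before taking log2. *Ccl11* was 0.28 higher by counts and -0.12 by FPKM, with neither called.

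The groups of related genes were described from lists. Their counts of genes that rose stand beside 4.05% of all genes called higher in skin and 2.77% in small intestine. Of 14 genes for the development and survival of eosinophils, 11 were tested in skin and 3 rose, namely the myeloid transcription factor gene *Spi1* (1.25 on the log2 scale) and the receptor chains *Csf2rb* (2302 to 2937 counts in control and 4024 to 5421 in IMQ skin) and *Csf2rb2* (0.90). In small intestine 12 were tested and 3 rose, which were *Spi1* (2.43), *Csf2ra* (1.35) and *Csf2rb* (1.25). These genes are used by other myeloid cells as well. *Gata1* had 19 to 39 counts in control skin and 21 to 26 in IMQ skin. In small intestine *Gata1* had 17, 18 and 24 counts in control libraries and 13 and 7 with IMQ, and edgeR did not call it. *Il5*, the cytokine of eosinophil survival, had 4, 3 and 0 counts in control skin and 0 in the other 8 libraries.

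Of 20 other surface and effector genes of eosinophils, 19 were tested in skin and 8 rose, among them *Ptgdr2* (3.91), a prostaglandin D2 receptor, *Cd300lf* (3.70), *Itgam* (2.94) and *Adgre1* (2.88). Their median log2 fold change was 0.91, beside -0.014 over all genes. For small intestine 18 were tested and 7 rose, among them *Pirb* (2.73), *Cd300lf* (2.72), *Lilrb4a* (2.58) and *Sirpa* (2.54), with a median of 0.48. Most of these are also carried by macrophages, monocytes or neutrophils. *Alox15*, which encodes a lipoxygenase of eosinophils and macrophages, had 597, 349 and 263 counts in control skin and 199, 195 and 179 in IMQ skin, and did not pass the test (edgeR, adjusted p = 0.142).

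Of 18 type 2 cytokine and alarmin genes, 14 were tested in skin and 4 rose. They were *Chil3* (4.87), a chitinase-like protein of myeloid cells, the alarmins *Tslp* (2.89) and *Il33* (2.04), and the receptor chain *Il4ra* (0.90). No gene of this list was called lower in skin by edgeR. However, *Retnla* had 5708, 1900 and 3540 counts in control skin and 71, 191 and 1155 in IMQ skin. In the small intestine 9 were tested and none was called by edgeR, with 3 at an unadjusted p under 0.05 and 1 called by DESeq2. Of 7 chemokines listed as other possible CCR3 ligands, *Ccl3* (2.91) and *Ccl7* (1.58) rose in skin. In the small intestine 5 were tested, *Ccl3* rose (3.13) and the epithelial chemokine *Ccl28* fell by 0.78 on the log2 scale.

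Markers of several other cell types moved as well. Of 8 patrolling monocyte genes, 7 were tested in skin and 5 rose, including *Pou2f2* (3.19) and *Treml4* (3.18), and their summed level went from 105 to 138 CPM in control to 280 to 410 in IMQ skin, where *Ear2* fell. In the small intestine 5 of 8 rose, including *Cd300e* (7.48), *Pou2f2* (4.06) and *Treml4* (2.93), and the summed level was 1698 to 2097 in control and 1891 to 2440 in IMQ libraries, where *Ear2* rose. *Ace*, which intestinal epithelium also expresses, made up 95.8% to 97.3% of that sum in control and 85.0% to 86.7% in IMQ libraries. The other 7 genes, a sum chosen after the data were seen, came to 56.8 to 70.9 CPM in control and 284 to 324 in IMQ small intestine, and to 53.7 to 81.9 and 203 to 296 in skin. Of 12 tissue macrophage genes, 4 rose in skin (summed level 552 to 992 in control and 1375 to 1794 in IMQ libraries), and 5 rose in small intestine (263 to 386 and 1066 to 1154), where *Timd4* fell by 3.44 on the log2 scale. The macrophage genes with the most counts in IMQ small intestine were *C1qa*, *C1qb* and *C1qc*. *C1qb* had 2540, 1544 and 2191 counts in control and 16583 and 13487 in IMQ libraries there. *Mrc1* had 522, 675 and 900 against 709 and 713, and *Lyve1* had 882, 719 and 789 against 846 and 829. *Adgre1* is also in the list of eosinophil surface genes. The part of monocytes and macrophages in the changes of *Ear2* was not tested.

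Of 12 mast cell genes, 10 were tested in each tissue. In skin 6 rose, led by *Tpsab1* (3.04), and 3 of 4 basophil genes tested rose, led by *Mcpt8* (3.76). *Fcer1a* and *Ms4a2* are in both lists. The summed level of the mast cell genes was 190 to 221 CPM in control and 312 to 397 in IMQ skin, where *Ccr3* was not higher. In the small intestine no mast cell gene was called by edgeR, with 0 at an unadjusted p under 0.05 and 0 called by DESeq2. There, the sum was 250 in control replicate 7, which was also the highest for *Ccr3*, *Siglecf* and *Ccl24*, and 60.8 to 110.5 in the other controls. The part of mast cells in that library's values was not tested. Of 9 neutrophil genes tested, 6 rose in skin, led by *S100a8* (10.16). In small intestine 2 of 6 rose by edgeR, and 1 was called by DESeq2. *Csf3r* had 207, 167 and 145 counts in control and 1811 and 1439 in IMQ libraries there. *S100a8* had 6, 0 and 5 against 7 and 11, and *Retnlg* had 196, 234 and 235 against 242 and 182. Of 10 fibroblast genes, edgeR called none in either tissue, with 1 at an unadjusted p under 0.05 in each and none called by DESeq2, and their median was -0.43 in skin and -0.16 in small intestine.

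Markers of the tissues themselves also differed between the groups, and their part in the changes of the 10 genes was not tested. Of 10 skin epidermis genes tested in skin, the keratin gene *Krt14* (1.41) and *Sfn* (1.03) rose, and the summed level was 13189 to 26429 CPM in control and 20154 to 34833 in IMQ skin. Of 8 hair follicle and pigment genes tested, none was called by edgeR, but 8 had an unadjusted p under 0.05, 8 were called by DESeq2, and their median log2 fold change was -4.09. In small intestine, none of 12 epithelial genes was called by edgeR (4 at an unadjusted p under 0.05 and 0 by DESeq2). Their sum was 33271 to 42728 CPM in control and 49985 to 55433 in IMQ libraries, without overlap. Genes that differ along the intestine were examined as markers of the segment sampled. None of 7 genes of the proximal part was called by edgeR, with 2 at an unadjusted p under 0.05 and 1 called by DESeq2. Their median log2 fold change was -0.011, and their sum was 4768 to 5995 CPM in control and 7196 to 7229 in IMQ libraries, without overlap. For the distal part, none of 6 genes was called by edgeR, with 3 at an unadjusted p under 0.05 and 3 called by DESeq2. Their median log2 fold change was -1.04, and their sum was 218 to 410 CPM in control and 106 to 171 in IMQ libraries, also without overlap.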

How the data were processed

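RNA of whole skin and small intestine was sequenced from 11 libraries as 100-bp paired-end reads with a stranded mRNA kit. According to the submitters' processing notes, reads were demultiplexed with bcl2fastq 2.20.0, trimmed with Trimmomatic, aligned to mm10 with HISAT2 2.1.0 and quantified with StringTie 2.1.3b. The authors deposited whole-number read counts per gene without normalization. The deposited FPKM were scaled by the authors for transcript length and library size. The deposited TPM were not used. How strand and reads with several matches were treated in counting is not given in the sources used here.

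Genes with at least 1 count in every library of a fit were normalized by relative log expression and tested with edgeR 4.0.16 in R 4.3.3 (quasi-likelihood test, Benjamini-Hochberg adjusted p under 0.05 over all genes). Each tissue was fitted on its own, and the difference between responses and between control tissues came from 1 fit of 11 libraries. Standard errors are the log2 fold change divided by the square root of F. Normalized counts were obtained by dividing by the effective library size, times its mean over the fit. Members that failed the filter were described by raw counts, and by a fit without the filter. The fitting code was run on simulated counts with the same spread for every gene and changes set only in genes with higher counts. That run does not cover members with few counts or the spread of the real libraries.

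The members, the 17 lists and the tests were chosen with earlier results of these data known. The result of 1 list is not reported here. Named genes were all members, all other Ear and Rnase2 copies, up to 4 called genes per list with the largest change and a mean of at least 20 normalized counts, and the 3 nearest genes of each member with enough counts. Genes that were named outside this rule (*Il5*, *Gata1*, *Prg3*, *Alox15*, *Retnla*, *C1qa*, *Mrc1*, *Lyve1*, *Retnlg* and *Cebpe*) were chosen after their values were seen. Alternatives were TMM, DESeq2 1.42.0, filterByExpr, no filter, limma 3.58.1 on log2(FPKM + 0.01) and log2(FPKM + 1), summed Ear rows, 1 fit of 11 libraries, and each library left out. The sum of *Ear1*, *Ear2* and *Ear10* was added after the data were seen. Positions and promoters were taken from RefSeq and transcripts from GENCODE (both GRCm38), with genes matched by Entrez identifier or symbol. The longest protein-coding transcript of each gene was used.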

Additional observations from a re-analysis of the deposited data

Results flagged for a closer look

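The response of *Ear2* to IMQ differed between the tissues, with a log2 difference of 5.40, small intestine minus skin (SE 0.60, 95% interval 4.07 to 6.73, edgeR interaction over 11 libraries, adjusted p = 0.00178). All 3 IMQ libraries of skin were below their controls and both IMQ libraries of small intestine were above theirs. The difference was 4.57 when *Ear1*, *Ear2* and *Ear10* were summed (edgeR, adjusted p = 0.00483), a sum chosen after the data were seen, and 0.43 when all 7 Ear and Rnase2 copies were summed (edgeR, adjusted p = 0.835).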

How the results depend on the processing

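Of 330 values of single genes recomputed under an alternative, 286 kept their direction and their side of the threshold, 22 lost the call, 1 gained it and 21 changed sign. With all 7 Ear and Rnase2 copies summed, 1 of the 10 genes was called in skin in place of 2, 0 for the difference between the responses in place of 1 (edgeR), and the summed row that replaced *Ear2* had a log2 fold change of 1.67 in skin, because *Rnase2b* holds most of the sum. In 1 fit of all 11 libraries, 1 was called in skin, as *Ccl24* had an adjusted p of 0.0932 (edgeR), and the cause was not tested. On log2(FPKM + 0.01) and on log2(FPKM + 1), 1 was called between the control tissues in place of 4, and *Ccl11* had a difference of -0.12 on both, beside a shift of -0.45 in the median gene on the former. For the difference between responses, *Siglecf* was at -0.022 on log2(FPKM + 1), and *Ccl24* was at 0.15 and 0.037 on the smaller and the larger offset, all near 0 and not called.

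With 1 library left out, the genes called numbered 0 to 3 in skin (0 without IMQ replicate 5 and 3 without control replicate 2, where *Ear1* passed the filter), 0 to 1 in small intestine (0 without control replicate 9 or IMQ replicate 11), 1 for the difference between responses, and 2 to 4 between control tissues (2 without skin control replicate 3 or small intestine control replicate 7). A fit without 1 of the 2 IMQ libraries of small intestine assumes that the lone library varies like the controls. Values that changed sign, not called before or after, ranged from -0.48 to 0.10 for *Ccl11* in skin, from -0.61 to 0.14 for *Siglecf* in small intestine, and, for the difference between responses, from -0.37 to 0.63 for *Siglecf*, -0.37 to 0.24 for *Ccl11* and -0.45 to 0.73 for *Ccl24*. No paired analysis was possible because the labels number the libraries from 1 to 11 and no number is shared between groups. The counts of *Epx*, *Prg2*, *Ear6* and *Il5ra* are so low that depth limits what could be detected.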

Other observations

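The eotaxins also had close neighbours over the 11 libraries, given as a description. The gene whose centred log2 normalized counts were closest to *Ccl11* was *Wfdc1*, at a root mean square difference of 0.16, followed by *Dmac2l* (0.20) and *Ctsw* (0.21), where the median over all genes was 0.60. The closest to *Ccl24* were *Gm29938* (0.48), *Enpp6* (0.50) and *Bco1* (0.50), with a median of 1.05. The next closest to *Siglecf* after *Ccr3* were *Pdxk* (0.35) and *C330021F23Rik* (0.36).

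*Cebpe*, which encodes a transcription factor of granulocyte development, had 56, 6 and 23 counts in control skin and 0, 0 and 8 in IMQ skin. Its counts in small intestine were 88, 45 and 46 in control libraries and 34 and 17 with IMQ. It was chosen after its values were seen, and in skin it did not pass the filter. In small intestine *Cebpe* passed the filter and was not called by edgeR.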
